A study of Mus musculus with 15 samples.

Results

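Heat shock proteins and their DNAJ co-chaperones were examined in a mouse pancreatic cancer model under Gln antagonism. The members were all genes named Hspa to Hspe, Hsph1, Hsp90a or Dnaja to Dnajc in the 3 deposited comparison tables, without pseudogenes and without the ER chaperones Hspa5, Hsp90b1 and Dnajb9. Of 71 matching symbols, 64 reached a mean normalized count of at least 10 in a table, out of 55291 genes listed in each table. The other 7, Dnajb8, Dnajc5b, Dnajc5g, Dnajc6, Hspb2, Hspb3 and Hspb9, stayed below that level and were not tested. The members were 9 HSP70 proteins, 3 HSP110 proteins, 2 cytosolic HSP90 proteins, 5 small heat shock proteins, 9 mitochondrial chaperones, 11 DNAJA and DNAJB proteins, 9 J proteins of the ER, 14 other J proteins and 2 HSP-binding proteins.

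RNA was sequenced from 15 samples in 5 groups of 3, all built on HY19636, a mouse pancreatic ductal adenocarcinoma line with mutant p53. In culture, cells were given 25 µM 6-diazo-5-oxo-L-norleucine (DON), a Gln analog that blocks Gln-using enzymes, for 24 h, or were kept without Gln (noGln) for 24 h, or were left as controls (CNT). For tumors, HY19636 cells were placed in the pancreas of female C57BL/6J mice aged 8 to 10 weeks. The mice received DRP-104, a DON prodrug, at 3 mg/kg, or vehicle (VEH), daily for 5 days with 2 days off over 2 cycles, and tumors were taken on day 21. Each tumor came from a separate mouse, whereas nothing states that the culture libraries came from separate cultures, so p-values for the cells measure the spread between these libraries only. All samples rest on 1 cell line.

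HSP70 proteins fold clients by cycles of ATP hydrolysis. J proteins deliver the client and start the hydrolysis, while HSP110 and other exchange factors release ADP. HSP90 acts later on kinases and steroid receptors, small heat shock proteins hold unfolded chains without ATP, and HSP60 with HSP10 folds proteins imported into mitochondria. Part of the family is constitutive, and part is switched on by heat shock factor 1 (HSF1), which binds repeated nGAAn units called heat shock elements.

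Culture libraries held 25224177 to 48155949 gene-assigned reads and tumor libraries 16339957 to 20687784. The third control library was the deepest, at 48155949, and stood apart from the other 2 controls for several members named below. The control columns of both culture tables carry the name VEH but were taken as the CNT group, since those tables are named for CNT and hold no other controls, and both tables hold the same control reads. The 8 epithelial markers checked were detected in every group, with a summed level between 404861 and 524797 in control cells and between 119550 and 127808 with DON in the DON table. In the noGln table it was between 390459 and 494584 in the same controls and between 159382 and 174712 without Gln. In the tumors, 10 T cell markers summed to 1546 in DRP-104 tumor 3 against 48.4 to 104.6 in the other 5. The summed level of 8 skeletal muscle markers was 450.9 in VEH tumor 2 and at most 24.6 elsewhere. The summed level of 8 fibroblast markers ran from 19123 to 33071 in DRP-104 tumors and from 39958 to 83688 in VEH tumors, without overlap. Most of that sum was Col1a1, Col1a2 and Col3a1. These collagen genes, Pdgfra and Thy1 did not overlap between the groups, whereas Dcn, Lum and Pdgfrb did.

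With DON, 22 of 59 tested members rose and 13 fell, against 33.3% of all 13556 genes that rose and 34.7% that fell, or 68.1% called in all (limma, adjusted p under 0.05). Without Gln, 22 of 58 rose and 19 fell, against 34.5% and 34.9% of 13390 genes, or 69.4% in all. Both shares of members called, 59.3% with DON and 70.7% without Gln, were near those of the whole table, so neither share is a result about the family. Libraries of the groups did not overlap for 37 members with DON and 47 without Gln, against 71.9% and 73.6% of all genes. The median log2 fold change over the members was 0.12 with DON and 0.05 without Gln, and over all genes 0.02 and 0.01. Quantile normalization, which moved the median of all genes with DON to 0.13, gave 31 members higher and 11 lower. The 2 culture comparisons use the same 3 control libraries. Levels below are normalized counts on a scale common to the 9 culture libraries, and fold changes are log2 differences fitted within each deposited table, relative to CNT, with their SE.

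**Figure D1:**
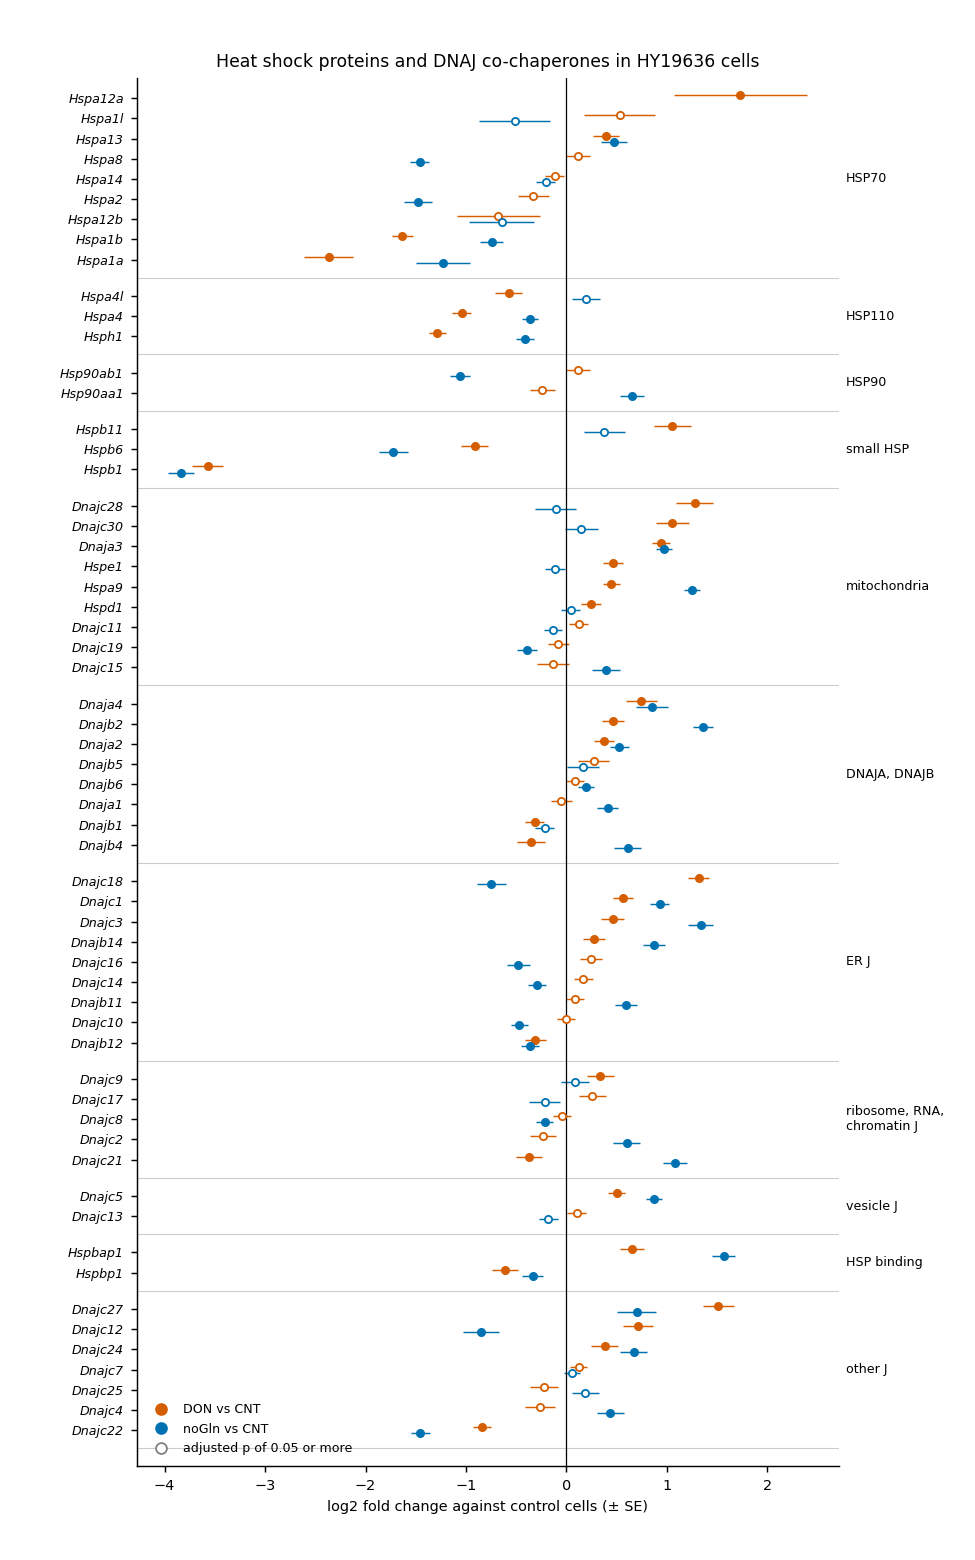
Each row is a member tested in culture, grouped by role, and the horizontal axis is the log2 fold change against control cells with its SE for DON (orange) and noGln (blue). Filled points have an adjusted p under 0.05. Hspb1 lies furthest to the left in both comparisons (-3.57 and -3.83), the 3 HSP110 genes lie to the left with DON, and Hspa8 and Hsp90ab1 lie near 0 with DON and to the left without Gln.

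Among the HSP70 proteins, the stress-inducible genes fell under both conditions, more with DON, while the constitutive Hspa8 and Hspa2 fell without Gln and did not pass the test with DON. Of 9 HSP70 genes tested with DON, 2 rose and 2 fell, and of 8 tested without Gln, 1 rose and 4 fell, which is 44.4% and 62.5% called beside 68.1% and 69.4% of all genes. Hspa1b, an inducible HSP70, measured 2207, 2503 and 2160 in the control libraries, 687, 778 and 761 with DON, and 1606, 1216 and 1237 without Gln. The 3 groups did not overlap, and the log2 fold change was -1.63 ± 0.10 with DON (adjusted p = 7.0e-09) and -0.75 ± 0.12 without Gln (adjusted p = 8.1e-05). Hspa1a, the neighbouring gene for a nearly identical protein, had 212, 216 and 203 in controls, 48.1, 48.2 and 28.1 with DON, and 127, 100.3 and 52.7 without Gln. All treated libraries lay below all controls, with log2 fold changes of -2.37 ± 0.25 (adjusted p = 1.2e-06) and -1.23 ± 0.27 (adjusted p = 0.0012).

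Both genes lie on the minus strand of chromosome 17, Hspa1b at 34956436 to 34959238 and Hspa1a at 34969190 to 34972156 (GRCm38). Of the 100-base windows of the longest Hspa1b transcript, 49.9% occur in other genes, nearly all in Hspa1a, so reads could be split between them and their separate levels are uncertain. The same share was 47.5% for Hsp90aa1, 42.7% for Hspb1 and 31.6% for Hspa8, which share sequence with pseudogenes. For Dnajb6, Hspd1 and Dnaja1, which also share sequence with other gene models, it was 31.0%, 26.9% and 14.8%.

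Hspa8, the constitutive cytosolic HSP70 that also strips clathrin from vesicles, was among the most abundant members. It measured 107759, 103653 and 91856 in controls, 107358, 121630 and 102487 with DON, and 37906, 34285 and 36279 without Gln. The DON libraries overlapped the controls, whereas every library without Gln lay far below every control. The log2 fold change was 0.12 ± 0.12 with DON (adjusted p = 0.39) and -1.46 ± 0.09 without Gln (adjusted p = 3.4e-08). Under quantile normalization the DON value became 0.51 and passed the test. Hspa2, an HSP70 best known from the testis, fell without Gln by 1.48 ± 0.14 on the log2 scale (adjusted p = 1.1e-06), from 729, 797 and 570 to 257, 230 and 245. With DON it was 614, 464 and 598, which overlapped the controls (-0.33 ± 0.15, adjusted p = 0.069). Leaving out the third control library moved that value to -0.47 and past the test.

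Hspa13, an HSP70 of the ER, rose in both comparisons, by 0.39 ± 0.13 with DON and 0.47 ± 0.13 without Gln. Hspa12a was low, with 9.77, 1.22 and 7.67 in controls against 12.9, 21.8 and 23.1 with DON, and was below the tested level without Gln. It reached the tested mean of 10 only through its DON libraries, so its call with DON (1.73 ± 0.66, adjusted p = 0.031) is no support for a rise. The counts of members and of HSP70 genes that rose with DON include it. Hspa1l, close in sequence to Hspa1a, stayed between 16.7 and 61.1 in all 9 libraries. Hspa14 and Hspa12b did not pass the test in either comparison.

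The promoters of the members were read for heat shock elements in windows from 250 bases before to 50 bases after each RefSeq start (GRCm38.p6), which were at hand for 52 members. Paired units head to head, GAANNTTC, which read the same on both strands, occurred in 12 of 52 members (23.1%) and in 9.04% of all 27025 genes with a window. Runs of 3 units, GAANNTTCNNGAA or its reverse complement, which contain the shorter forms, occurred in 4 members (7.69%: Dnajb6, Hspd1, Hspe1 and Hsph1) and in 0.662% of all genes. Units tail to tail, TTCNNGAA, occurred in 6 members (11.5%) and in 9.60% of all genes. The stretches below show the matches, in capitals, of Hspa1a, Hspa1b, Hspb1 and Hspb6, which fell in both comparisons, and of Dnajb4, Dnajb6, Hspd1 and Hspe1, which did not.
Hspa1a, chr17:34972238-34972275, minus strand: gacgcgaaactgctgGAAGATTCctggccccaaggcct
Hspa1b, chr17:34959320-34959357, minus strand: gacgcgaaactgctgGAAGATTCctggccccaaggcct
Hspb1, chr5:135887787-135887844, plus strand: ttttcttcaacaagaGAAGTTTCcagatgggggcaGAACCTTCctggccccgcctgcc
Hspb6, chr7:30553166-30553203, plus strand: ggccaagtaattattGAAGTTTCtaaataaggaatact
Dnajb4, chr3:152193846-152193874, minus strand: ttcgttcgttcgctgTTCTAGAAagtaca
Dnajb6, chr5:29735844-29735872, plus strand: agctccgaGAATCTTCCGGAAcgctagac
Hspd1, chr1:55088053-55088082, minus strand: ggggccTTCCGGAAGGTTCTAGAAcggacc
Hspe1, chr1:55088053-55088082, plus strand: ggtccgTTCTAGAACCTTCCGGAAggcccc
The Hspa1a and Hspa1b stretches are identical, and their 300-base windows differ at 4 positions. In both, the match ends 97 bases before the start. Hspb1 has 2 matches, the nearer ending 90 bases before the start. Hspd1 and Hspe1 are transcribed away from each other, and theirs is the same site read on opposite strands. A match is a run of letters and not a measured binding site, and it was found in members that rose, fell and did not pass the test. Matches not shown include head to head pairs of Dnaja4 and Dnajc27, which rose in both comparisons. The letters of the Dnajc27 match are those of Hspa1a. The matches of Hsph1, which fell in both, are not shown either.

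The 3 HSP110 genes, whose proteins exchange the nucleotide of HSP70, all fell with DON, beside 34.7% of all genes that fell. Hsph1, the inducible HSP110, measured 4806, 5386 and 5219 in controls, 2033, 2144 and 2183 with DON and 4168, 3782 and 3475 without Gln. The 3 groups were separate, with log2 fold changes of -1.29 ± 0.09 with DON (adjusted p = 1.4e-08) and -0.41 ± 0.09 without Gln (adjusted p = 0.0013). Hspa4, the main constitutive HSP110, followed the same order, with 15129, 15494 and 16444 in controls, 8249, 6841 and 8003 with DON and 12038, 12161 and 11798 without Gln. Its log2 fold changes were -1.04 ± 0.09 (adjusted p = 2.8e-07) and -0.36 ± 0.08 (adjusted p = 0.0011). Hspa4l, the third HSP110, fell by 0.57 ± 0.14 on the log2 scale with DON (adjusted p = 0.0019), to 3864, 3448 and 3738. Its controls were 4575, 4891 and 7184, the third standing apart, and its level without Gln was 6106, 6099 and 6192 (0.20 ± 0.14, adjusted p = 0.22). Without the third control, the noGln value became 0.40 and passed the test.

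The 2 cytosolic HSP90 genes did not pass the test with DON and moved in opposite directions without Gln. Hsp90ab1, the constitutive form, had the highest level of any member in controls. Its libraries measured 144922, 145580 and 127545 in controls, 151069, 161099 and 144353 with DON, and 67263, 63199 and 66637 without Gln. The DON libraries overlapped the controls, while every noGln library was below every control (0.12 ± 0.12, adjusted p = 0.39, and -1.06 ± 0.10, adjusted p = 6.5e-07). Quantile normalization raised the DON value to 0.36, past the test. Hsp90aa1, the inducible form, measured 19083, 19027 and 26648 in controls, 19754, 17452 and 17444 with DON, and 34243, 32932 and 31879 without Gln. All noGln libraries exceeded the highest control, which was the third, and the gene rose by 0.65 ± 0.12 (adjusted p = 3.8e-04), against -0.24 ± 0.12 with DON (adjusted p = 0.10).

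Per kb of gene model, Hsp90ab1 and Hspa8 led the members in control cells, with 36.4% and 21.1% of the members' summed mean level, followed by Hspd1 (5.90%), Hspa9 (4.55%), Hspe1 (4.36%) and Hsp90aa1 (4.33%). Without Gln the order became Hsp90ab1 (23.1%), Hspa9 (14.4%), Hspa8 (10.1%) and Hsp90aa1 (8.92%). In vehicle tumors Hsp90ab1 (33.6%) and Hspa8 (19.6%) led again. These are shares within each group's own table.

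Hspb1, the small heat shock protein HSP25 (HSP27 in humans), which holds unfolded proteins and binds actin, showed the largest fall of any tested member in both culture comparisons. It measured 3272, 3431 and 2476 in controls, 312, 209 and 256 with DON, and 222, 203 and 201 without Gln. Every treated library was far below the lowest control. The log2 fold changes were -3.57 ± 0.16 with DON (adjusted p = 2.1e-10) and -3.83 ± 0.13 without Gln (adjusted p = 1.7e-10), 11.9-fold and 14.3-fold lower. The gene lies on the plus strand of chromosome 5 at 135887919 to 135889563 (GRCm38).

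Hspb6 (HSP20), a small heat shock protein of muscle and other tissues, also fell in both, from 791, 774 and 611 to 373, 362 and 421 with DON (-0.91 ± 0.14, adjusted p = 4.1e-05) and to 227, 233 and 185 without Gln (-1.72 ± 0.15, adjusted p = 3.7e-07). Its exons overlap those of genes on the opposite strand, and the use of strand in counting is not stated. Hspb11, now known as the intraflagellar transport protein IFT25, carries the family's name but not its chaperone role. It rose with DON, from 118, 177 and 192 to 322, 361 and 318 (1.05 ± 0.19, adjusted p = 1.9e-04), and measured 175, 224 and 215 without Gln (0.38 ± 0.20, adjusted p = 0.12), a value that passed without the third control (0.52). Hspb7 and Hspb8 were at 0 in all control and noGln libraries and had at most 7.16 in DON libraries in their own table.

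**Figure D2:**
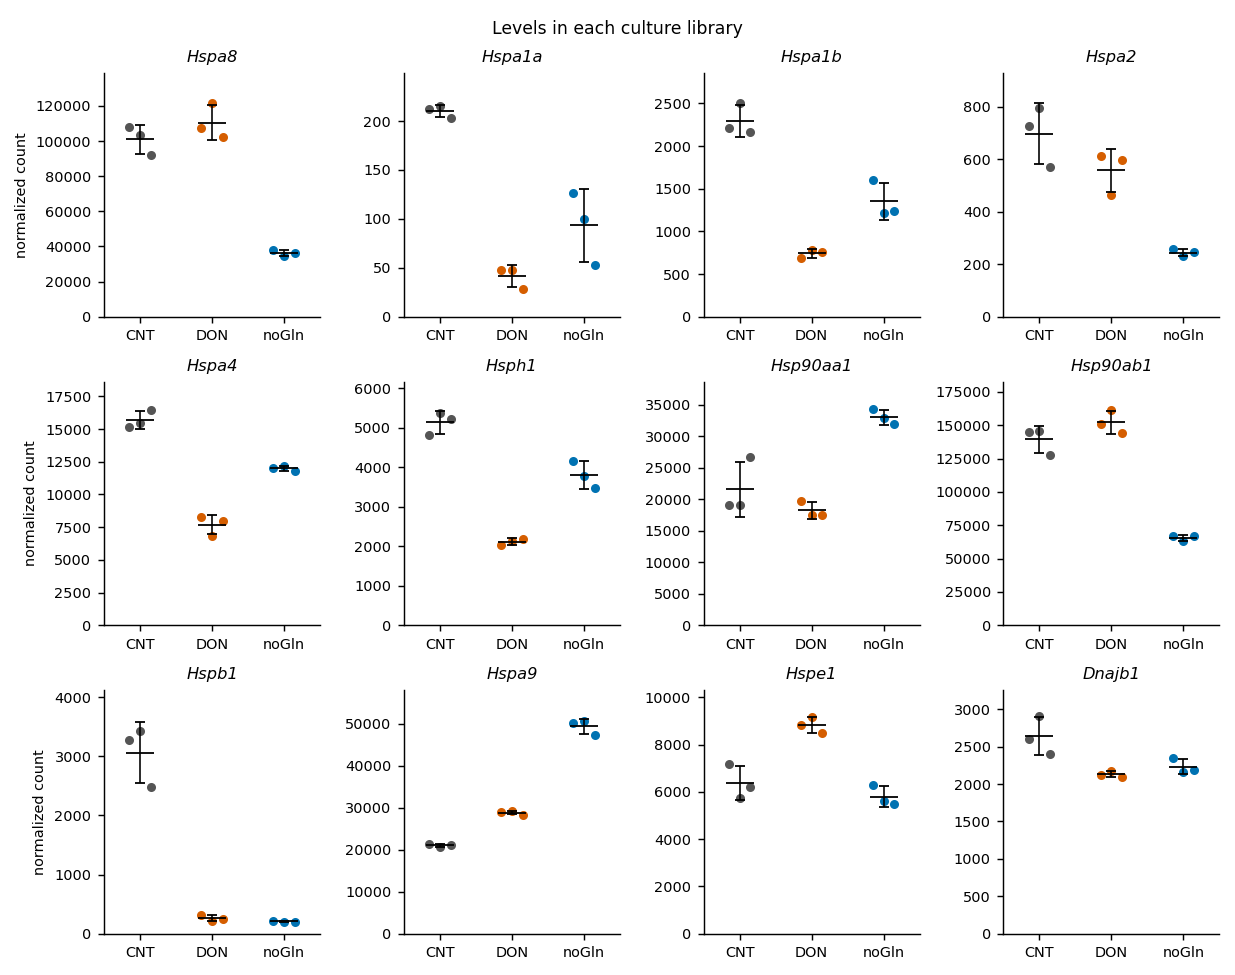
Each panel plots the normalized count (linear axis from 0) of 1 gene in the 3 control, 3 DON and 3 noGln libraries, with the mean and SD in black. Hspb1 is close to the bottom of its axis in both treated groups, Hsph1 and Hspa4 are lowest with DON, and Hspa8, Hsp90ab1 and Hspa2 are lowest without Gln.

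The mitochondrial chaperones rose with DON or did not pass the test. Of 9, 6 rose and none fell with DON, while 3 rose and 1 fell without Gln. The shares called, 66.7% and 44.4%, were at or below the 68.1% and 69.4% of all genes. Hspa9 (mortalin), the matrix HSP70 that pulls proteins through the import channel, measured 21297, 20649 and 21238 in controls, 29129, 29157 and 28377 with DON and 50276, 50650 and 47400 without Gln. The 3 groups were separate, in that order (0.45 ± 0.09, adjusted p = 3.9e-04, and 1.25 ± 0.08, adjusted p = 3.3e-08). Dnaja3 (TID1), its J protein partner in the matrix, rose about equally in both, from 2782, 2709 and 2551 to 4933, 5462 and 5147 with DON (0.94 ± 0.09) and 5237, 5083 and 5195 without Gln (0.97 ± 0.08).

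Hspe1 (HSP10), the lid of the HSP60 chamber, rose with DON, from 7187, 5760 and 6200 to 8833, 9169 and 8508 (0.47 ± 0.10, adjusted p = 7.1e-04). Without Gln it was 6299, 5597 and 5470, which overlapped the controls (-0.11 ± 0.10, adjusted p = 0.31). Hspd1 (HSP60) was 21615, 19782 and 23751 in controls, 25764, 27066 and 24683 with DON and 22046, 22973 and 20834 without Gln. Its rise of 0.24 ± 0.10 with DON (adjusted p = 0.036) was lost when any DON library or either of the first and second controls was left out, with an adjusted p of up to 0.157.

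Dnajc28 and Dnajc30, J proteins of mitochondria, rose with DON and did not pass the test without Gln, and both were also higher with DON than without Gln directly (1.41 ± 0.18 and 0.94 ± 0.15). Dnajc28 went from 85.5, 107 and 107 to 219, 284 and 233 (1.28 ± 0.19, adjusted p = 3.5e-05) and was 86.6, 94.0 and 92.2 without Gln. Dnajc30, which binds the ATP synthase, went from 177, 157 and 141 to 363, 330 and 303 (1.06 ± 0.16, adjusted p = 5.2e-05) and was 169, 185 and 164 without Gln. Exons of Dnajc30 overlap those of Bud23 on the opposite strand. Dnajc15 and Dnajc19, J proteins of the import motor, passed the test only without Gln and in opposite directions, with log2 fold changes of 0.40 ± 0.14 and -0.39 ± 0.10.

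Of the 11 DNAJA and DNAJB proteins of cytosol and nucleus, 8 were tested in culture, and Dnajb3, Dnajb7 and Dnajb13 were below the tested level. With DON 3 rose and 2 fell, and without Gln 6 rose and none fell, which is 62.5% and 75.0% called beside 68.1% and 69.4% of all genes. Dnajb2, a J protein that passes clients to the proteasome, rose in both, from 863, 892 and 760 to 1116, 1189 and 1184 with DON (0.46 ± 0.11, adjusted p = 0.0015) and to 2273, 2117 and 1950 without Gln (1.36 ± 0.10, adjusted p = 1.2e-07). Dnajb1 (HSP40), the inducible J partner of HSP70, was 2599, 2915 and 2405 in controls, 2124, 2175 and 2090 with DON and 2349, 2164 and 2181 without Gln. All treated libraries were below the lowest control, and only the DON fall passed the test (-0.31 ± 0.10, adjusted p = 0.0097, and -0.22 ± 0.09, adjusted p = 0.052). The noGln value passed under edgeR and without the third control.

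Dnajb4, a relative of Dnajb1, had 809, 715 and 1063 in controls, 701, 642 and 667 with DON and 1292, 1339 and 1203 without Gln. It rose without Gln (0.61 ± 0.14, adjusted p = 0.0015) and fell with DON (-0.36 ± 0.14, adjusted p = 0.033), but the fall did not pass without the third control (-0.20) or without any 1 of the DON libraries. Dnaja1, a major J partner of Hspa8, was 4904, 4490 and 6038 in controls and 6840, 6650 and 6562 without Gln, above every control (0.41 ± 0.11, adjusted p = 0.0036). With DON it was 5208, 4692 and 4988 (-0.05 ± 0.11). Dnaja2 and Dnaja4 rose in both comparisons, by 0.38 ± 0.10 and 0.75 ± 0.16 with DON and by 0.53 ± 0.10 and 0.85 ± 0.16 without Gln. A large part of the Dnaja4 exons overlaps exons of Wdr61 on the opposite strand. As the use of strand in counting is not stated, reads of Wdr61 may be included in the Dnaja4 level. Dnajb6, a suppressor of aggregation, had a range of 4070 to 4950 over the 9 libraries, and its noGln value of 0.20 ± 0.08 (adjusted p = 0.043) lost its call in 10 of 15 alternatives. Dnajb5 did not pass the test in either comparison, but passed with DON without the second control (0.43).

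All 9 J proteins of the ER passed the test without Gln, 4 rising and 5 falling, while with DON 4 rose and 1 fell. These are 100% and 55.6% of the 9, beside 69.4% and 68.1% of all genes. Dnajc3 (p58IPK), which inhibits the eIF2α kinase PERK, rose from 1614, 1682 and 2252 to 2612, 2536 and 2447 with DON (0.46 ± 0.12, adjusted p = 0.0031) and to 5071, 4474 and 4131 without Gln (1.34 ± 0.13, adjusted p = 1.1e-06). Dnajb11 (ERdj3), a soluble partner of BiP, was 3121, 2734 and 2950 in controls, 2970, 3401 and 3032 with DON (0.08 ± 0.09, adjusted p = 0.43), and 4982, 4495 and 3659 without Gln (0.59 ± 0.11, adjusted p = 3.9e-04). Every noGln library exceeded every control. Dnajc1 and Dnajb14, membrane J proteins of the ER, rose in both, by 0.57 ± 0.10 and 0.28 ± 0.11 with DON and by 0.93 ± 0.09 and 0.88 ± 0.11 without Gln.

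Other ER J proteins fell without Gln. Dnajc10 (ERdj5), a disulfide reductase, was 6342, 5968 and 6893 in controls, 6765, 6189 and 6305 with DON and 4559, 4434 and 4646 without Gln (0.00 ± 0.09 and -0.47 ± 0.08, adjusted p = 2.6e-04). Dnajc14 and Dnajc16 fell by 0.30 ± 0.09 and 0.48 ± 0.11 on the log2 scale without Gln and did not pass with DON, and Dnajb12 fell in both. Dnajc18, a membrane J protein, went in opposite directions. It rose from 464, 490 and 493 to 1145, 1306 and 1180 with DON (1.31 ± 0.11, adjusted p = 1.1e-07) and fell to 235, 318 and 302 without Gln (-0.75 ± 0.14, adjusted p = 4.4e-04).

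Among the 5 J proteins of ribosome, RNA and chromatin, 1 rose and 1 fell with DON, and 2 rose and 1 fell without Gln, or 40.0% and 60.0% called, both below the share of all genes. Dnajc21, which acts in maturation of the large ribosomal subunit, had 806, 729 and 1001 in controls, 674, 609 and 673 with DON and 1712, 1856 and 1684 without Gln. It rose without Gln (1.08 ± 0.12, adjusted p = 4.5e-06), and its fall with DON (-0.37 ± 0.13, adjusted p = 0.019) did not pass without the third control (-0.25, adjusted p = 0.052) or the second DON library (-0.32). Dnajc2 (MPP11), the J protein of the ribosome-associated complex, rose without Gln, from 1500, 1449 and 2141 to 2501, 2467 and 2502 (0.60 ± 0.13). With DON it was 1422, 1417 and 1462, which overlapped the controls (-0.23 ± 0.13, adjusted p = 0.13). Dnajc9, a histone chaperone, rose with DON by 0.34 ± 0.14, and Dnajc8, a splicing-associated protein, fell without Gln (-0.22 ± 0.08).

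The remaining members were of mixed roles. Dnajc5 (cysteine string protein), which keeps SNARE proteins folded on vesicles, rose in both, by 0.50 ± 0.08 and 0.87 ± 0.08, whereas Dnajc13, an endosomal protein, passed in neither. Hspbap1 rose from 574, 615 and 513 to 842, 1005 and 852 with DON (0.65 ± 0.12, adjusted p = 2.8e-04) and to 1858, 1570 and 1539 without Gln (1.57 ± 0.11, adjusted p = 8.3e-08). Hspbp1, an HSP70 exchange factor, fell in both (-0.61 ± 0.13 and -0.34 ± 0.11).

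Dnajc22 fell from 3165, 3093 and 2908 to 1672, 1730 and 1745 with DON (-0.84 ± 0.09) and to 986, 1165 and 1148 without Gln (-1.45 ± 0.09, adjusted p = 3.6e-08). Dnajc27, a Rab-like GTPase with a J domain, rose from 162, 134 and 139 to 380, 458 and 419 with DON (1.51 ± 0.16, adjusted p = 1.1e-06) and to 304, 199 and 207 without Gln (0.70 ± 0.19, adjusted p = 0.0057). Dnajc12, a co-chaperone of the aromatic amino acid hydroxylases, rose from 193, 190 and 198 to 302, 353 and 309 with DON (0.71 ± 0.15, adjusted p = 6.9e-04). Without Gln it fell to 88.7, 113 and 117 (-0.85 ± 0.18, adjusted p = 9.8e-04), so that the 3 groups were separate. Dnajc24, which acts in diphthamide synthesis, rose in both, Dnajc4 rose without Gln, and Dnajc7 and Dnajc25 passed in neither.

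The direct comparison of DON with noGln libraries asks whether blocking Gln use and removing Gln left the same state. It used reads on the common scale of the 9 culture libraries, with the controls in neither arm but in the size factors, the filter and the estimate of the spread. Of 58 members tested, 22 were higher with DON and 21 were higher without Gln, against 31.0% and 32.3% of all 13514 genes, or 63.3% in all. The share of members called was 74.1%.

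Dnajc18 (2.09 ± 0.12, adjusted p = 1.8e-09), Hspa8 (1.61 ± 0.09, adjusted p = 1.6e-09), Dnajc12 (1.59 ± 0.16), Dnajc28 (1.41 ± 0.18), Hsp90ab1 (1.21 ± 0.09) and Hspa2 (1.18 ± 0.14) were higher with DON by a log2 difference of at least 1. Hspa1l was as well (1.08 ± 0.35, adjusted p = 0.014), but at 28.1, 36.4 and 61.1 against 19.0, 16.7 and 19.2 its call was lost without the third DON library. The exon overlap of Hspa1l with Gm10501 limits these values too. In the other direction were Dnajc21 (-1.42 ± 0.11, adjusted p = 3.6e-08) and Hspa1a (-1.10 ± 0.30, adjusted p = 0.0043). All 3 HSP110 genes were higher without Gln, beside 32.3% of all genes. Their differences were -0.84 ± 0.08 for Hsph1, -0.74 ± 0.13 for Hspa4l and -0.65 ± 0.08 for Hspa4. Of 9 mitochondrial chaperones, 6 were higher with DON and 2, Hspa9 (-0.77 ± 0.07) and Dnajc15, were higher without Gln. Hspb1 differed by 0.29 ± 0.15 (adjusted p = 0.10), with a 95% interval from 0.982-fold to 1.53-fold. Dnaja3 differed by 0.00 ± 0.07.

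**Figure D3:**
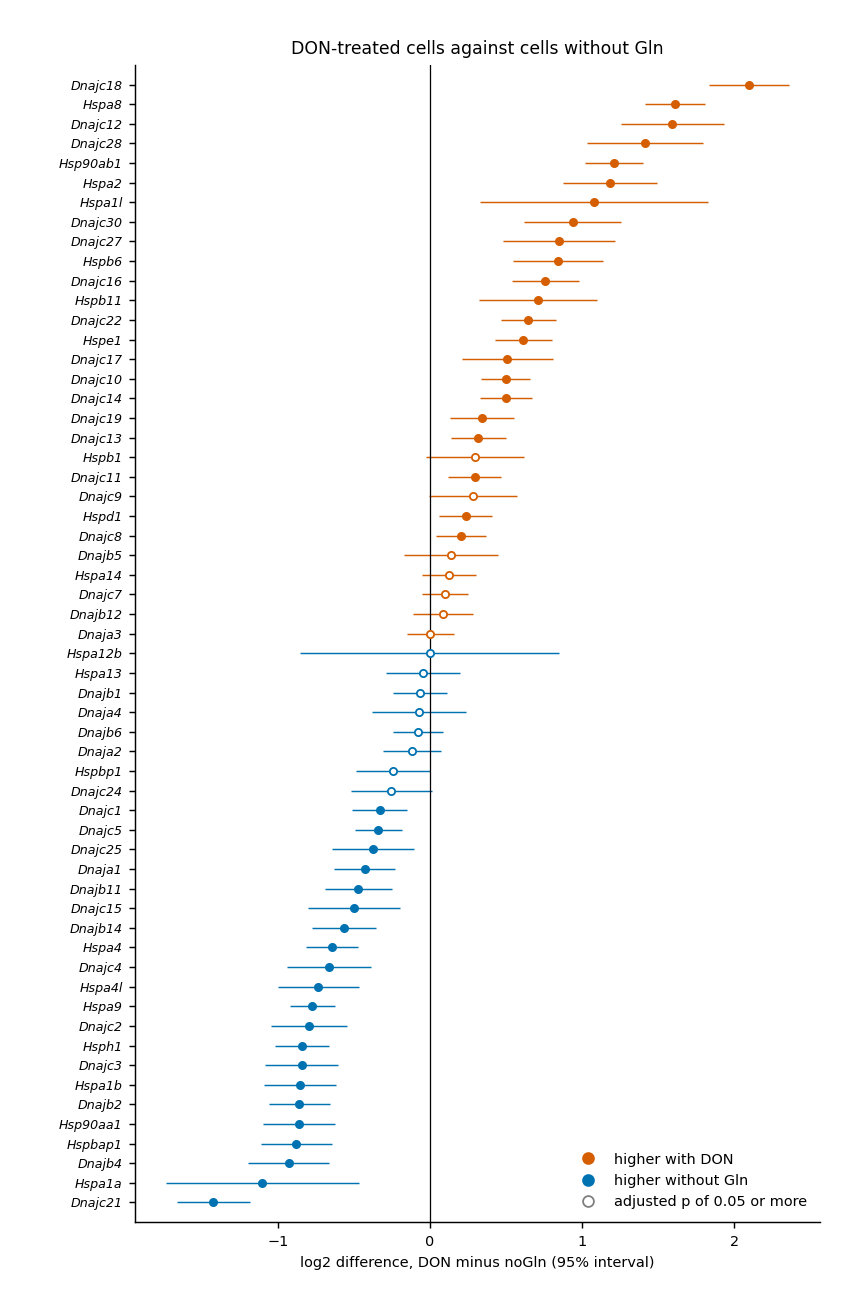
The log2 difference between DON and noGln libraries, with its 95% interval, is plotted for the 58 members tested, in order. Points to the right (orange) were higher with DON, points to the left (blue) higher without Gln, and open points have an adjusted p of 0.05 or more. Dnajc18, Hspa8 and Dnajc12 stand at the upper end and Dnajc21 and Hspa1a at the lower end.

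The 4 members called in opposite directions against controls were picked from the same DON and noGln libraries. A direct difference between DON and noGln therefore follows from that choice and is no further support. Its size was as given above for Dnajc18, Dnajc12 and Dnajc21, and -0.93 ± 0.12 (adjusted p = 9.4e-06) for Dnajb4. The share of all genes called in opposite directions was not counted, so the number of 4 members is no result about the family.

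The partners of the family were followed in 5 further gene lists, whose counts stand beside 68.1% of all genes called with DON and 69.4% without Gln. A list of heat shock factors and HSF1 targets outside the members had 21 tested genes. Of these, 7 rose and 9 fell with DON and 8 rose and 8 fell without Gln (76.2% called in each). The list and its counts also hold the cold-inducible genes Rbm3, which fell in both, and Cirbp, which rose with DON. Zfand2a, a proteasome adaptor induced by arsenite, rose by 2.14 ± 0.08 and 1.50 ± 0.08, Hmox1, heme oxygenase, by 2.19 ± 0.10 and 1.33 ± 0.11, and Chordc1, an HSP90 co-chaperone, by 0.73 ± 0.12 and 1.20 ± 0.12. Other targets fell in both, among them 3 named after their values were seen. Fkbp4, an HSP90 immunophilin, had -1.17 ± 0.09 and -0.73 ± 0.09, Slc5a3, a myo-inositol transporter, -0.74 ± 0.14 and -1.02 ± 0.14, and Serpinh1, the collagen chaperone HSP47, -0.92 ± 0.15 and -0.57 ± 0.11. Cryab, a small heat shock protein, fell without Gln (-1.89 ± 0.58) from a level of at most 22.0. Hsf1 itself was 1854, 1890 and 1687 in controls, 1766, 1769 and 1715 with DON and 1536, 1478 and 1458 without Gln. It passed the test only without Gln (-0.26).

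Of 26 HSP70 and HSP90 co-chaperones, 7 rose and 8 fell with DON and 6 rose and 12 fell without Gln (57.7% and 69.2% called). Fkbp5, an HSP90 partner on steroid receptors, fell from 5976, 5971 and 5194 to 640, 752 and 665 with DON (-3.07 ± 0.10) and to 1007, 905 and 1035 without Gln (-2.52 ± 0.09). Bag2, an HSP70 exchange factor, also fell in both (-1.25 ± 0.11 and -0.68 ± 0.10). Cdc37l1 rose in both (1.08 ± 0.14 and 0.64 ± 0.15), and Hscb, the J protein of iron-sulfur cluster assembly, rose with DON (1.49 ± 0.14).

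Of 14 genes of mitochondrial protein quality control, 10 rose and 2 fell with DON and 7 rose and 2 fell without Gln (85.7% and 64.3% called). Atf5, a transcription factor of the mitochondrial stress response, rose from 1923, 1957 and 1423 to 13922, 15680 and 14070 with DON (3.04 ± 0.12) and to 12274, 12756 and 11467 without Gln (2.82 ± 0.11). Pam16 of the import motor rose with DON (1.03 ± 0.11) and the protease gene Yme1l1 without Gln (1.02 ± 0.16). Of 16 chaperonin and prefoldin genes, 9 rose and 1 fell with DON and 6 rose and 3 fell without Gln (62.5% and 56.3% called). Pdrg1 (1.25 ± 0.10 and 1.73 ± 0.09) and Pfdn4 (0.62 ± 0.12 and 1.20 ± 0.12) were among those that rose in both.

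Of 15 ER chaperones and partners, which include the 3 genes left out of the family, 9 rose and 2 fell with DON and 11 rose and none fell without Gln (73.3% called in each). Hspa5 (BiP), the HSP70 of the ER, was 22627, 21992 and 22983 in controls, 42055, 45769 and 40653 with DON and 135515, 116562 and 103286 without Gln (0.92 ± 0.09 and 2.41 ± 0.10). Dnajb9, its J partner ERdj4, rose by 2.42 ± 0.12 and 2.85 ± 0.14, Sdf2l1 by 1.55 ± 0.12 and 1.66 ± 0.15, and Manf by 0.98 ± 0.10 and 1.64 ± 0.13.

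In the tumors, no member was called between DRP-104 and VEH (0 of 64), nor was any of 15454 genes tested by limma (0%). At an unadjusted p under 0.05 there were 775 genes and 1 member. Of all genes, edgeR called 0 and DESeq2 56, 27 higher and 29 lower. No member was among these. An unadjusted p under 0.05 was found for 1 member and 863 of all genes by edgeR, and for 2 members and 951 of all genes by DESeq2. In the authors' FPKM table no gene was called. There, 2 of 62 members tested had an unadjusted p under 0.05, beside 1079 of all 14183 genes. The groups did not overlap for 4 members, against 10.6% of all genes. The median log2 fold change of the members was -0.10, and that of all genes -0.01. The median residual SD of the members was 0.22 on the log2 scale in tumors and 0.13 in the DON comparison. In bulk tumors, fewer cells of a type and less RNA per cell cannot be told apart.

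Hspb1 measured 895, 1147 and 748 in VEH tumors and 716, 871 and 927 in DRP-104 tumors, which overlapped (0.910-fold, 95% interval 0.665 to 1.24). Hsph1 measured 2301, 1382 and 2121 against 1865, 2092 and 2178 (0.11 ± 0.20). Hspa1b was 906, 666 and 731 in VEH tumors and 796, 2134 and 907 in DRP-104 tumors, and Hspa1a was 241, 241 and 216 against 190, 648 and 145. For both, DRP-104 tumor 2 was far above the other 5 tumors, and without it the log2 fold change went from 0.60 to 0.16 for Hspa1b and from 0.17 to -0.48 for Hspa1a. The summed level of 8 immediate early genes was 20034 in that tumor and between 14696 and 19445 in the others. Junb made up 11719 of it, and was 12770 in VEH tumor 3. A link of these genes to the Hspa1a and Hspa1b levels was not tested.

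Hspb8, a small heat shock protein that works with Bag3, was at 0 in control cells but had 167, 235 and 113 in VEH tumors and 144, 83.0 and 66.7 in DRP-104 tumors (-0.82 ± 0.39, adjusted p = 0.92). Hspb7, a small heat shock protein of heart and skeletal muscle, measured 14.3, 149 and 3.85 in VEH tumors and 0, 18.5 and 26.5 in DRP-104 tumors, the 149 being VEH tumor 2, where the skeletal muscle markers were high. Of those 8 markers, 1 was at 0 in all VEH tumors and 4 in all DRP-104 tumors, and their part in the Hspb7 level was not tested. Dnaja4, with the smallest p of the members in the count table, was 146, 253 and 330 in VEH tumors and 107, 158 and 57.8 in DRP-104 tumors (-1.20 ± 0.44, adjusted p = 0.92). In the authors' FPKM table, whose tumor columns are not matched to these tumors, its log2 difference was 0.39, in the other direction. The exon overlap of Dnaja4 with Wdr61 limits these tumor values too. The smallest p of the members in the FPKM table was that of Dnajb2, with a log2 difference of 0.57 ± 0.15 (unadjusted p = 0.0054, adjusted p = 0.47), against -0.01 ± 0.17 in the count table. Dnajb5 was 220, 276 and 335 against 187, 247 and 160 (-0.49 ± 0.26, adjusted p = 0.92).

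**Figure D4:**
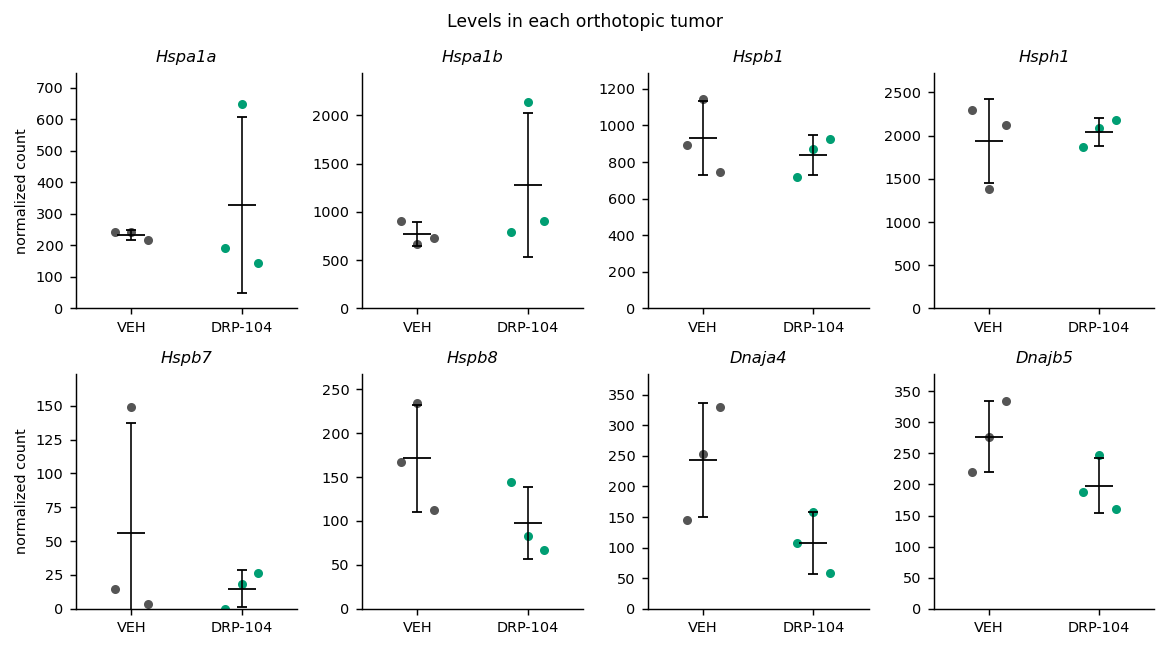
Normalized counts (linear axis from 0) are shown for 8 members in the 3 VEH and 3 DRP-104 tumors, with the mean and SD in black, the lower bar for Hspb7 running below 0 and not drawn there. The groups overlap in all 8 panels, and 1 DRP-104 tumor stands high for Hspa1a and Hspa1b and 1 VEH tumor for Hspb7.

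Whether DRP-104 in tumors changed the members as DON did in cells was tested as the difference between the 2 effects over 12 libraries. Agent, dose, duration and host cells all differ between these settings and cannot be told apart. Of 61 members tested, 7 had a higher log2 fold change in tumors and 10 a lower one, against 19.1% and 14.0% of 15070 genes, or 33.1% in all. Quantile normalization, which moved the median of all genes from -0.02 to -0.13, gave 6 and 19, and leaving out the first or the second DON library gave 11 in all.

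The 7 were genes that fell with DON in cells: Hspb1 (difference 3.44 ± 0.28, adjusted p = 2.3e-06), Hspa1a (2.54 ± 0.60), Hspa1b (2.23 ± 0.39), Hsph1 (1.40 ± 0.22), Hspa4 (0.89 ± 0.18), Dnajc22 (0.79 ± 0.20) and Dnajc21 (0.61 ± 0.19). The 10 were genes that rose with DON, led by Dnajc27 (-2.04 ± 0.31), Dnaja4 (-1.95 ± 0.49), Dnajc18 (-1.55 ± 0.21) and Dnajc28 (-1.25 ± 0.42), and they included Hspa9 and Dnaja3 of the mitochondrial matrix. Each difference came from the change in cells together with a tumor value that did not pass its own test. For Dnaja4, both values carry the limit of its exon overlap with Wdr61.

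**Figure D5:**
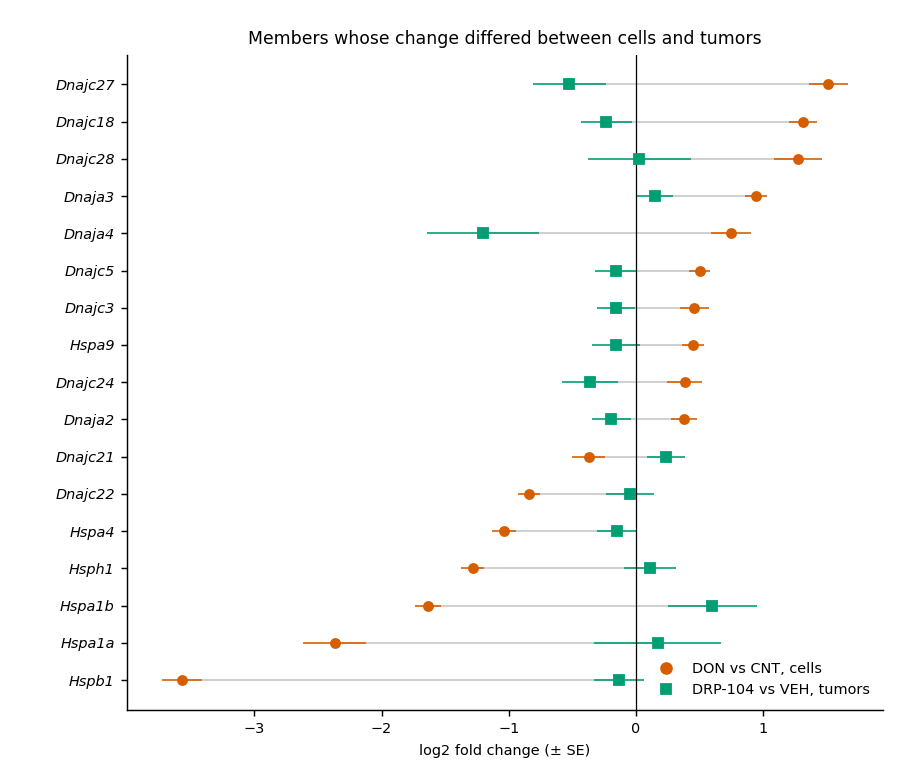
For the 17 members whose effects differed, the log2 fold change with its SE is shown for DON against CNT in cells (orange circles) and for DRP-104 against VEH in tumors (green squares). The circles run from -3.57 for Hspb1 to 1.51 for Dnajc27, while the squares lie between -1.20 and 0.60.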

How the data were processed

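Reads were aligned with HISAT2 and compared with DESeq2 by a service laboratory for the authors. The submitters' notes also list STAR 2.5, CASAVA and GRCm39, while gene coordinates in the authors' FPKM table are on GRCm38. The counting tool and strand use are not given in the sources used here. Each deposited signal value is a gene count that the authors divided by 1 size factor per library, estimated within each table. The deposited FPKM values cover tumors only and served as an alternative. The authors' own fold change and p-value columns hold their comparisons and were not used.

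Whole reads were recovered for at least 99.987% of values (tolerance 0.0051). Depth was 25224177 to 48155949 reads in culture and 16339957 to 20687784 in tumors. Of counts from 1 to 20, 69.6% to 72.7% were even in culture and 41.9% to 46.5% in tumors, and the cause was not tested. Replicates differed by more than sampling noise.

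Genes with a mean of at least 10 were tested with limma 3.58.1 (R 4.3.3) on log2(value + 1), two-sided, with a mean-variance trend and Benjamini-Hochberg adjustment over all genes, so folds of low genes are understated. The direct comparison used recovered reads with median-of-ratios size factors over 9 libraries. As alternatives, recovered reads were fitted with DESeq2 1.42.0 and with the quasi-likelihood test of edgeR 4.0.16. Others were quantile normalization, other filters, pseudocounts of 0.5 and 5, a threshold of 0.01, a replicate block and leaving out each library. The fit was tested on simulated counts with 200 changed genes.

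The members and lists were chosen with earlier results of these data known. Named were 23 members fixed in the design, further members with an absolute log2 fold change of at least 1, a mean of at least 100 and separate groups in culture, those called in opposite directions or differing by at least 1 between DON and noGln, the 3 smallest p in tumors, and up to 4 genes per list. Other members are given as counts, with some named after their values were seen. Promoters are from RefSeq (GRCm38.p6). Part of the line's genotype is not reported here.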

Additional observations from a re-analysis of the deposited data

Results flagged for a closer look

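For 17 members the change with DRP-104 in tumors differed from the change with DON in cells by a test of that difference (limma, adjusted p under 0.05). The log2 difference, tumors minus cells, was 3.44 for Hspb1, 2.54 for Hspa1a, 2.23 for Hspa1b, 1.40 for Hsph1, 0.89 for Hspa4, 0.79 for Dnajc22 and 0.61 for Dnajc21. It was -2.04 for Dnajc27, -1.95 for Dnaja4, -1.55 for Dnajc18, -1.25 for Dnajc28, -0.79 for Dnaja3, -0.74 for Dnajc24, -0.66 for Dnajc5, -0.62 for Dnajc3, -0.60 for Hspa9 and -0.57 for Dnaja2. Groups of 3 are too small for a test of single outlying samples.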

How the results depend on the processing

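In DON against CNT, noGln against CNT and DON against noGln, every alternative kept the number of members called within 1.5 times, and in DRP-104 against VEH none was called in any, although DESeq2 called 56 of all genes there against 0 by limma. Of 24 named results called with DON, 21 kept direction and call in all alternatives, as did 24 of 25 without Gln and 27 of 29 between DON and noGln, and no call was reversed. The exceptions were Dnajb4, Dnajc21 and Hspd1 with DON, Dnajb6 without Gln, and Hspa1l and Hspd1 between DON and noGln. In the difference between tumors and cells, the 17 members called became 10 at a threshold of 0.01 and 11 to 20 when a library was left out. The 10 called lower became 19 with quantile normalization, 6 with no filter, 4 at a threshold of 0.01 and 5 to 13 when a library was left out, lowest without the first or the second DON library, and the cause was not tested. Same-numbered libraries share only a number, with correlations of deviations of 0.02, 0.00 and 0.03 for DON and CNT, 0.03, -0.03 and -0.03 for noGln and CNT, and -0.27, 0.04 and -0.36 for the tumors. With the replicate block, 22 members were higher and 13 lower with DON, 21 and 18 without Gln, and 6 and 7 in the difference between tumors and cells. With 3 libraries a group and no statement of separate cultures, precision rests on the spread between these libraries.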
